A study of Mus musculus with 8 samples.

Results

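Regulatory and ST2-linked T cell genes were followed across the spleen of mice with and without Eif3e in activated B cells. The 8 genes, of 32285 in the count tables, were taken by symbol: Foxp3, Il2ra, Ctla4, Ikzf2, Tnfrsf4, Il1rl1, Klrg1 and Areg. They were selected on their levels and co-detection in CD4+ T cells of the total libraries by genotype, with earlier results of these data known, so their values in CD4+ T cells by genotype are given as a description with no test. Single-cell RNA was counted with a droplet kit that reads the 3′ ends of transcripts, in 8 libraries of spleen cells from mice 2 months old. cKO mice were Eif3e fl/fl Cγ1Cre Rosa26-YFP LSL, and control mice were Cγ1Cre Rosa26-YFP LSL, so that both carried the Cre and the reporter and only cKO mice carried the floxed Eif3e alleles. Cγ1Cre is switched on in activated B cells, so T cells are not its intended target, and YFP marks cells in which Cre has acted. Each genotype gave 2 libraries of total splenocytes and 2 of sorted YFP+ cells, replicate 1 from batch 1 and replicate 2 from batch 2, and each library pooled the spleens of several mice.

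Foxp3 is the transcription factor that defines regulatory T (Treg) cells, CD4+ T cells that restrain immune responses. Il2ra encodes CD25, the α chain of the high-affinity IL-2 receptor. Ctla4 encodes an inhibitory receptor that competes with CD28 for CD80 and CD86, and Tnfrsf4 encodes OX40, a co-stimulatory receptor of activated T cells. Ikzf2 encodes Helios, an Ikaros-family zinc finger protein found in many Treg cells. Il1rl1 encodes ST2, the receptor for the alarmin IL-33, which marks a subset of Treg cells that often carry the inhibitory receptor Klrg1 and make amphiregulin (Areg), a ligand of the EGF receptor.

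The count tables held 83967 cell barcodes, of which 83704 passed the filters, 9276 to 11652 in a library, with a median of 5250 to 6810.5 unique molecular identifiers (UMIs, counted transcripts) per cell. Between 51 and 102 barcodes were shared by any pair of libraries, at most 0.971% of a library. The 4 total libraries gave 5965 CD4+ T cells: 1343 and 1284 in the control replicates and 1432 and 1906 in the cKO replicates. Their identity was checked by Cd4, which had a UMI in 80.0% and 72.8% of these cells in the controls and 78.0% and 81.4% in the cKO libraries, against 0.79% to 1.58% of B-lineage cells. Together, 6 B cell markers held 428 and 582 CPM (UMIs per 1000000 UMIs of the sum) in the control CD4+ T cell sums and 550 and 861 CPM in the cKO sums. T cells that could not be given a subset, 4.56% of control and 5.25% of cKO total cells, were left out. The share of B cell markers was largest in the second cKO replicate, and its part in the results was not tested. Eif3e, the targeted gene, was counted at 225 and 268 CPM in B-lineage cells of the control YFP+ libraries and 234 and 280 CPM in those of the cKO YFP+ libraries, so it was not lower in the cells in which Cre had acted. In CD4+ T cells it stood at 297 and 364 CPM in the controls and 265 and 308 CPM in the cKO libraries. Counts from the 3′ end can lie outside the deleted part of the gene and then check nothing, so the genotypes of these libraries rest on the labels. The study reports deletion of Eif3e in YFP+ B cells of older cKO mice, by immunoblot.

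The promoters of the members are shown first, because most of these genes were higher in the same libraries. RefSeq windows of GRCm38.p6 were found for 6 of the 8 members, with Foxp3 and Il1rl1 having 2 start sites each. The 250 bases upstream of the start site are printed on the + strand, with capitals for matches to 7 short motifs searched on both strands.
Il1rl1, start site 1, chr1:40429320-40429569: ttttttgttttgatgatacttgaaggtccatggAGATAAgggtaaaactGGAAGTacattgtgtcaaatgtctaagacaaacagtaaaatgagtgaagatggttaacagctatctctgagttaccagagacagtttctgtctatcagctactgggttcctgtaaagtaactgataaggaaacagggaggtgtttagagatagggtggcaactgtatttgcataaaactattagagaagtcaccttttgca
Il1rl1, start site 2, chr1:40439379-40439628: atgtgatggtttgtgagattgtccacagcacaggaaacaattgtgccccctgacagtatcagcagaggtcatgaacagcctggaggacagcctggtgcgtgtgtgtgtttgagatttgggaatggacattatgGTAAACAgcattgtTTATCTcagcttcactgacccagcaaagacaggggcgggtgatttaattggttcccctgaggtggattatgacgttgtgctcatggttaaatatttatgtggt
Areg, chr5:91139349-91139598: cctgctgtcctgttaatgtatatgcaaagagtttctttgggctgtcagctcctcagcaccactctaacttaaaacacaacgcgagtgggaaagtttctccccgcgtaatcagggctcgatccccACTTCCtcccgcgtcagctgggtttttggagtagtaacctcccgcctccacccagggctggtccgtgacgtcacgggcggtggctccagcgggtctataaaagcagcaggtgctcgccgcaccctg
Tnfrsf4, chr4:156013445-156013694: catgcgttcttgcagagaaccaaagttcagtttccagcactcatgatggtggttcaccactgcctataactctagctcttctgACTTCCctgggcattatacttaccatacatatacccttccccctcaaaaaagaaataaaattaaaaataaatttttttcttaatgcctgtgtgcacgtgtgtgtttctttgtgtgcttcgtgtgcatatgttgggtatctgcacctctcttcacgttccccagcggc
Foxp3, start site 2, chrX:7580233-7580482: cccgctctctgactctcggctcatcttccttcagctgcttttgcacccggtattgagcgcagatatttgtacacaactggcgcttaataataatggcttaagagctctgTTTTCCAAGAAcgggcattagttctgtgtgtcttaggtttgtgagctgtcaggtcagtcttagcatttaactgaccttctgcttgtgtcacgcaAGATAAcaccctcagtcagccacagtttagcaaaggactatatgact
Il2ra, chr2:11642542-11642791: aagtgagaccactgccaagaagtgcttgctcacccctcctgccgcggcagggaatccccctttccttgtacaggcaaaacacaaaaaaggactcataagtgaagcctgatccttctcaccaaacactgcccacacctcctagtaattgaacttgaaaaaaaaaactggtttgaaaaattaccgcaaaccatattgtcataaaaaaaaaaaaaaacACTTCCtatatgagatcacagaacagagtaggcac

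The GATA motif AGATAA stood in both Il1rl1 windows, starting at -217 and, on the minus strand, at -103 from the start site, and in the second Foxp3 window at -47. It stood in 9.99% of 32851 RefSeq promoter windows. The second Il1rl1 window also held the forkhead motif GTAAACA at -117, which stood in 3.17% of all windows. The second Foxp3 window held the STAT motif TTCNNNGAA at -139 (7.02% of windows), overlapping the NFAT motif GGAAAA on the minus strand at -141 (20.4%). The Ets motif GGAAGT (19.7%) stood in the first Il1rl1 window at -201 and, on the minus strand, in Areg at -126, Tnfrsf4 at -167 and Il2ra at -35. No window held the AP-1 motif TGANTCA or the NF-kB motif. The window of Ctla4 held an NFAT match at -145 and the first Foxp3 window held none of the 7. These are letter matches and no binding was measured. The genes themselves lie on GRCm38 at X:7573644-7595245 (Foxp3), 2:11642807-11693193 (Il2ra), 1:60887000-60915832 (Ctla4), 1:69531214-69687245 (Ikzf2, minus strand), 4:156013843-156016612 (Tnfrsf4), 1:40429570-40465415 (Il1rl1), 6:122270596-122282882 (Klrg1, minus strand) and 5:91139599-91148432 (Areg).

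In CD4+ T cells, transcripts of the ST2-linked genes were much more abundant in cKO mice, while Il2ra was lower. Levels are CPM of the UMIs summed over the CD4+ T cells of a library, given for control replicates 1 and 2 and then cKO replicates 1 and 2. The log2 fold changes of cKO over control come with their standard error from an edgeR model fitted over all 12169 genes that passed the filter. For Il1rl1 the levels were 3.21 and 3.59 CPM in the controls and 38.9 and 51.7 CPM in the cKO libraries, from 31, 27, 357 and 715 UMIs, a log2 fold change of 3.56 ± 0.27. Areg stood at 16.5 and 23.9 CPM in the controls and 128 and 223 CPM in the cKO libraries (2.99 ± 0.37). Klrg1 stood at 5.91 and 5.45 CPM against 33.3 and 31.7 CPM (2.36 ± 0.22). For these 3 genes each cKO library lay far above each control library, and the controls differed little from each other.

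Of the regulatory genes, Ikzf2 and Tnfrsf4 also stood far higher in cKO mice. Ikzf2 had 380 and 253 CPM in the controls and 1402 and 1260 CPM in the cKO libraries (1.96 ± 0.30). Tnfrsf4 had 40.8 and 66.8 CPM against 191 and 389 CPM (2.31 ± 0.43), with the cKO libraries further apart from each other than the controls. Foxp3 itself differed less, with 31.7 and 42.4 CPM against 58.8 and 74.9 CPM (0.73 ± 0.26). Ctla4 had 401 and 553 CPM against 587 and 827 CPM (0.45 ± 0.32), so that the higher control and the lower cKO library were close. Those libraries are of different batches. Within each batch Ctla4 was higher in the cKO library, and with batch as a block the difference was 0.45 ± 0.09. Il2ra went the other way, with 66.9 and 44.4 CPM in the controls and 40.8 and 31.8 CPM in the cKO libraries (-0.72 ± 0.27). Without the first control replicate the Il2ra difference was -0.41 and that of Ikzf2 was 2.28. Both cKO libraries lay above both controls for 7 of the 8 members, an order that 21.7% of all genes tested had, and Il2ra lay in the opposite order, as did 19.4% of genes. The median log2 fold change was 2.14 over the members and -0.03 over all genes. In sums over a cell class, more expressing cells and more RNA per cell cannot be told apart, so shares of cells are given next.

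**Figure D1:**
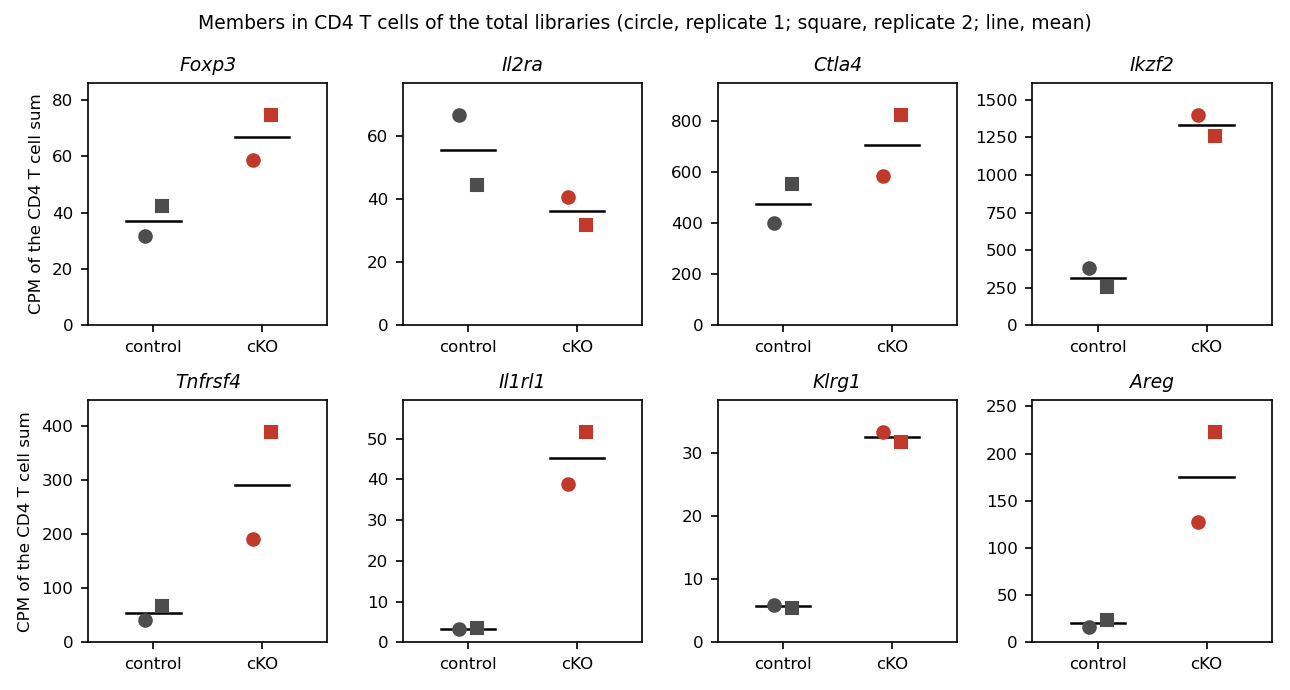
Level of each member in CD4+ T cells of the 4 total libraries, in CPM of the UMIs summed over the cells (vertical axis, linear, own scale per gene). Circles are replicate 1, squares are replicate 2 and lines are the mean of 2 libraries. Il1rl1 stood at 3.21 and 3.59 CPM in the control libraries and 38.9 and 51.7 CPM in the cKO libraries, and Il2ra is the member with both cKO libraries below both controls.

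The share of CD4+ T cells with at least 1 UMI of a gene moved with the level for every member but Il2ra. Foxp3 was detected in 9.38% and 10.6% of control CD4+ T cells and in 16.9% and 21.8% of cKO cells. Il1rl1 was detected in 0.894% and 0.701% of control cells and in 7.89% and 11.8% of cKO cells. Klrg1 was found in 1.19% and 1.25% against 6.49% and 8.71%. The ST2-linked genes were therefore seen in few control cells, 9 to 16 cells a library for Il1rl1 and Klrg1. Areg was found in 3.95% and 3.74% of control cells against 20% and 31.1% of cKO cells. Ikzf2 was found in 19.8% and 18.5% against 53.9% and 67.0%, and Tnfrsf4 in 11.6% and 13.2% against 36.7% and 55.5%. Ctla4 was the most widely detected member in controls, in 39.8% and 40.1% of cells, against 55.8% and 64.7% in cKO mice. Il2ra was detected in 11.9% and 8.64% of control cells and in 8.80% and 9.29% of cKO cells, shares that overlap.

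A share depends on depth, which overlapped between genotypes. The median UMIs per CD4+ T cell were 7093 and 5716 in the controls and 6178 and 6720 in the cKO libraries. After each cell was thinned to 2000 UMIs, with 7, 6, 21 and 18 shallower cells left out, Foxp3 was detected in 4.27% and 5.95% of control cells and 8.5% and 12.4% of cKO cells. Il1rl1 was then detected in 0.524% and 0.469% against 4.75% and 7.36%. Counting only cells with at least 2 UMIs, Foxp3 was found in 5.58% and 6.31% against 9.71% and 13.5%. CD4+ T cells were also chosen by their own transcripts in place of clusters. Il1rl1 was then detected in 0.25% to 0.463% of control and 7.52% to 10.5% of cKO cells. Foxp3 was then detected in 7.1% to 7.37% against 14.3% to 20.6%. B-lineage cells, which should lack Foxp3, had a Foxp3 UMI in 0.134% to 0.334% of cells and an Il1rl1 UMI in 0.0131% to 0.174%. Ctla4 was detected in 6.95% to 9.02% of these B-lineage cells, which include plasma cells, where 67.7% to 79.7% had a Ctla4 UMI. With plasma cells set apart, the mean share was still 6.65% in controls and 7.29% in cKO mice. The source of these UMIs was not tested, so B-lineage cells give no background for Ctla4. The shares carry no test, since the members were chosen on them.

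Control CD4+ T cells mostly had none of the 8 transcripts, and most cKO cells had at least 1. Cells with none of the 8 made up 54.3% and 54.9% of control CD4+ T cells and 32.8% and 24.2% of cKO cells. A UMI of Il1rl1, Klrg1 or Areg was present in 4.99% and 4.05% of control cells and in 25% and 37.6% of cKO cells. At least 2 of these 3 genes were present in 0.745% and 1.32% of control cells and in 7.54% and 11.3% of cKO cells.

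In both genotypes most cells with a UMI of Il1rl1, Klrg1 or Areg had only 1 of them. Il1rl1 and Klrg1 were seen together in 6 and 7 control cells and in 42 and 80 cKO cells. Co-detection in these cells was among the values that chose the members, so it is given as a description. Of cells with an Il1rl1 UMI, 66.7% in each control and 57.5% and 67.0% in the cKO libraries also had a Foxp3 UMI. Of cells with a Klrg1 UMI, 68.8% and 75% had Foxp3 in controls, and 55.9% and 71.7% in cKO mice. These shares overlap between genotypes, although within each batch the Klrg1 share was lower in cKO mice. A cell's depth enters every such share, since a deeper cell shows more genes.

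Among cells with a Foxp3 UMI, called Foxp3+ here, the ST2-linked genes were more frequent in cKO mice and Il2ra was less frequent. There were 126 and 136 Foxp3+ cells in the controls and 242 and 416 in the cKO libraries. A UMI of Il1rl1, Klrg1 or Areg was present in 23.8% (95% exact binomial interval 16.7% to 32.2%) and 23.5% (16.7% to 31.6%) of control Foxp3+ cells. In cKO mice it was present in 60.3% (53.9% to 66.5%) and 72.1% (67.5% to 76.4%). These intervals cover counting error only. Il1rl1 was found in 6.35% and 4.41% of control Foxp3+ cells and in 26.9% and 36.1% of cKO Foxp3+ cells. Klrg1 was found in 8.73% and 8.82% against 21.5% and 28.6%, and Areg in 16.7% and 21.3% against 46.7% and 53.4%.

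The Foxp3+ cells of the genotypes lay mostly in different Treg-like clusters, so that the comparisons within Foxp3+ cells are between different mixtures of clusters. Of the Foxp3 UMIs, 69.0% and 60.8% in controls but 17% and 4.34% in cKO mice lay in a cluster led by Il2ra, and 23.2% and 27.6% against 73.9% and 85.0% in a cluster rich in Il1rl1. The classical Treg genes behaved otherwise in these cells. Il2ra was detected in 65.9% and 50.7% of control Foxp3+ cells and in 31.0% and 28.1% of cKO Foxp3+ cells. Its level was 473 and 318 CPM in the controls and 183 and 117 CPM in the cKO libraries, a log2 fold change of -1.45 ± 0.33. Ctla4 was detected in nearly all Foxp3+ cells, 92.1% and 97.1% in controls and 96.7% and 97.1% in cKO mice, at a level that was 1796 and 2833 CPM against 1436 and 1814 CPM (-0.57 ± 0.30). Without the second control replicate that difference was -0.20. Foxp3 per Foxp3+ cell was alike, with 337 and 419 CPM against 343 and 365 CPM (-0.15 ± 0.29), although a UMI of Foxp3 was needed to enter the set. Ikzf2 (0.38 ± 0.29) and Tnfrsf4 (0.93 ± 0.34) differed less here than over all CD4+ T cells. Of the members higher in cKO Foxp3+ cells, Il1rl1 differed most, with 26.4 and 21.0 CPM against 149 and 183 CPM (2.68 ± 0.33), followed by Areg (1.46 ± 0.37) and Klrg1 (1.32 ± 0.29).

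CD4+ T cells with no Foxp3 UMI, called Foxp3-, also carried more of these transcripts in cKO mice. A Foxp3 transcript can be missed at this depth, so some Treg cells are counted as Foxp3-. In the Il1rl1-rich Treg-like cluster, 76.0% of 75 control cells and 63.7% of 808 cKO cells had a Foxp3 UMI, and its other cells are Foxp3- here. A UMI of Il1rl1, Klrg1 or Areg was present in 3.04% and 1.74% of control Foxp3- cells and in 17.8% and 27.9% of cKO Foxp3- cells. At least 3 of Il2ra, Ctla4, Ikzf2 and Tnfrsf4 were present in 6% and 5.05% of control Foxp3- cells and in 23.4% and 38.2% of cKO Foxp3- cells. Areg had the largest log2 fold change, with 8.47 and 5.03 CPM in the controls against 87.8 and 153 CPM in the cKO libraries (log2 fold change 4.0 ± 0.39). Ikzf2 had 195 and 102 CPM against 1078 and 1043 CPM (2.73 ± 0.37). Ikzf2 was found in 13.6% and 11% of control Foxp3- cells and in 45.3% and 58.3% of cKO Foxp3- cells, and in both genotypes most cells with an Ikzf2 UMI had no Foxp3 UMI. Tnfrsf4 had 19.8 and 28.2 CPM against 129 and 281 CPM (2.97 ± 0.43). Il1rl1 remained low, with 0.801 and 1.63 CPM against 16.0 and 17.9 CPM (3.51 ± 0.36), as did Klrg1, with 1.83 and 0.887 CPM against 15.0 and 9.28 CPM (2.82 ± 0.41). Most Il1rl1 and Klrg1 UMIs of cKO Foxp3- cells lay in the Il1rl1-rich Treg-like cluster. In cKO replicate 1, Foxp3- cells had 122 Il1rl1 UMIs, and that cluster held 345 of the 357 in all CD4+ T cells. For Klrg1 the counts were 114, and 290 of 306.

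Within each library, Foxp3+ cells had more of every other member than Foxp3- cells. With library as a block, the log2 difference was largest for Il2ra (3.96 ± 0.13), Klrg1 (3.56 ± 0.33) and Il1rl1 (3.30 ± 0.18). It was 2.53 ± 0.70 for Areg, 2.49 ± 0.56 for Tnfrsf4, 2.33 ± 0.74 for Ikzf2 and 2.27 ± 0.37 for Ctla4. These values average over the genotypes. Ikzf2 had 2158 and 1589 CPM in control Foxp3+ cells, against 195 and 102 CPM in control Foxp3- cells. In cKO mice it had 2968 and 2102 CPM against 1078 and 1043 CPM, a narrower gap, as for Tnfrsf4 and Areg. The sum of 6 B cell markers was also higher in Foxp3+ cells of every library, with 630 and 748 CPM in control and 710 and 1378 CPM in cKO Foxp3+ cells against 407 and 564 CPM and 517 and 728 CPM in Foxp3- cells, and its part in these differences was not tested. Follicular helper genes were seen in a part of the Foxp3+ cells of every library: Pdcd1 (PD-1) in 18.3% and 18.4% of control and 28.5% and 30.8% of cKO cells, Cxcr5 in 11.1% and 16.2% against 14.9% and 17.1%, and Bcl6 in 41.3% and 27.9% against 31.4% and 22.6%.

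**Figure D2:**
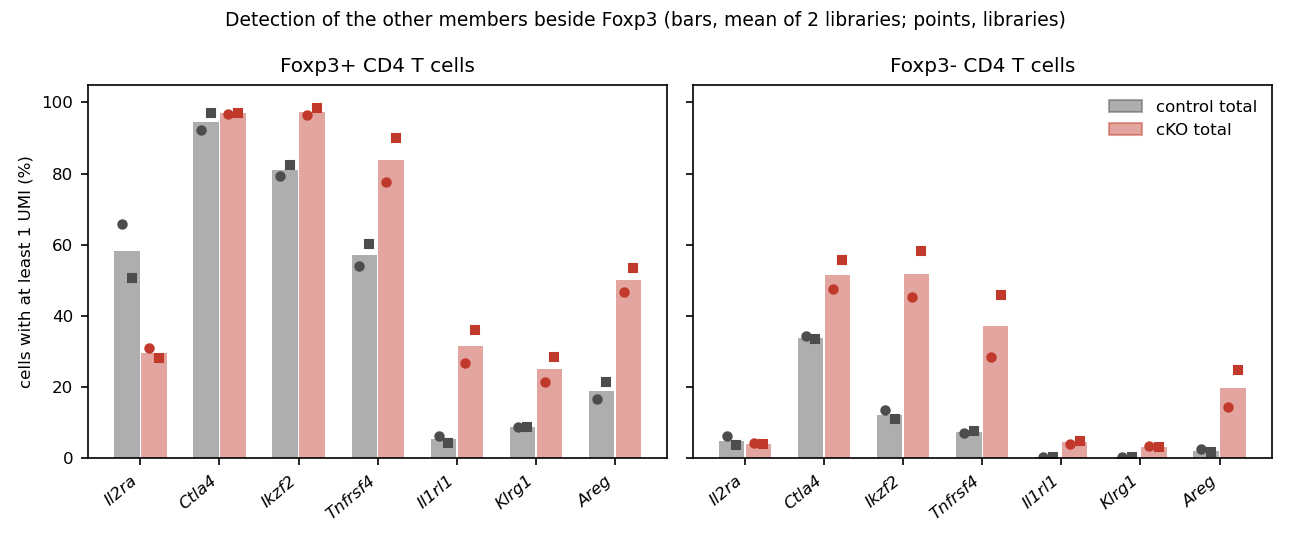
Share of CD4+ T cells with at least 1 UMI of each of the other 7 members (vertical axis, percent), in cells with and without a Foxp3 UMI, by genotype. Bars are the mean of 2 libraries and start at 0, and points are the libraries. In Foxp3+ cells Il1rl1 was found in 6.35% and 4.41% of control and 26.9% and 36.1% of cKO cells, while Il2ra was found in 65.9% and 50.7% of control and 31.0% and 28.1% of cKO cells.

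Clustering of the CD4+ T cells gave 11 clusters, and the members differed in how they were spread over them. The 8 members and the other gene lists were left out of the genes the cells were clustered on, apart from B cell markers. The members' values still come from the cells clustered and are a description with no test. The Treg markers used to name clusters include Foxp3, Il2ra, Ctla4 and Ikzf2. The name Treg-like is therefore not independent of the members. Most Il1rl1 and Klrg1 UMIs lay in a single Treg-like cluster of 883 cells, led by Neb, Il1rl1, Klrg1 and Itgae, in which 64.8% of cells had a Foxp3 UMI. It held 37 and 38 control cells and 298 and 510 cKO cells. This cluster held 87.1% and 88.9% of all Il1rl1 UMIs of control CD4+ T cells and 96.6% and 87.8% of those of cKO CD4+ T cells. Klrg1 was placed there with 82.5% and 95.1% of its UMIs in controls and 94.8% and 95.9% in cKO mice. Areg was placed there with 49.7% and 61.1% in controls and 61.0% and 60.3% in cKO mice.

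Within that cluster the members differed in how the genotypes compared. Il1rl1 had 96.6 and 116 CPM in the control cells and 192 and 207 CPM in the cKO cells, with no overlap. Klrg1 had 168 and 189 CPM against 162 and 138 CPM, and Areg had 283 and 534 CPM against 401 and 613 CPM, so that Areg overlapped between genotypes and Klrg1 was not higher in cKO cells. Within each batch Areg was higher in the cKO cells. Il2ra was lower in the cKO cells, with 215 and 209 CPM against 72.5 and 103 CPM. Ctla4 was also lower there, with 2557 and 3761 CPM against 1370 and 1917 CPM and no overlap, the reverse of its order over all CD4+ T cells. Foxp3 had 254 and 427 CPM against 222 and 290 CPM, which overlap, although within each batch the cKO value was lower.

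A separate Treg-like cluster, led by Il2ra, Gpr83 and Hdac9, had more Il2ra than the Il1rl1-rich cluster in every library and hardly any Il1rl1 or Klrg1. It held 136 and 131 control cells and 55 and 34 cKO cells, and 63.8% of its cells had a Foxp3 UMI. Il2ra stood there at 574 and 352 CPM in the controls and 638 and 310 CPM in the cKO libraries, which overlap. Il1rl1 was at 0 and 4.18 CPM against 0 and 10.5 CPM. Both genotypes had cells in each of these Treg-like clusters.

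Ikzf2, Ctla4, Tnfrsf4 and Areg were also found in a Tfh-like cluster. It was led by Sostdc1 and Il4, the cytokine of type 2 help, and had 26 and 10 control cells and 329 and 583 cKO cells. Ikzf2 was detected in 98.7% of its cells, Ctla4 in 80.3%, Tnfrsf4 in 70.3% and Areg in 39.9%, while Foxp3 was detected in 4.75% and Il1rl1 in 0.949%. It held 16.4% and 1.11% of the Areg UMIs of control CD4+ T cells and 33.7% and 34.4% of those of cKO CD4+ T cells. A further small Treg-like cluster, led by Penk and Il1r2, with 6, 5, 24 and 55 cells in the control and cKO libraries, had Tnfrsf4 in 98.9% of cells and Foxp3 in 33.3%. Its median of 11813.5 UMIs per cell was well above that of CD4+ T cells as a whole, and the part of depth or of doublets in it was not tested.

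**Figure D3:**
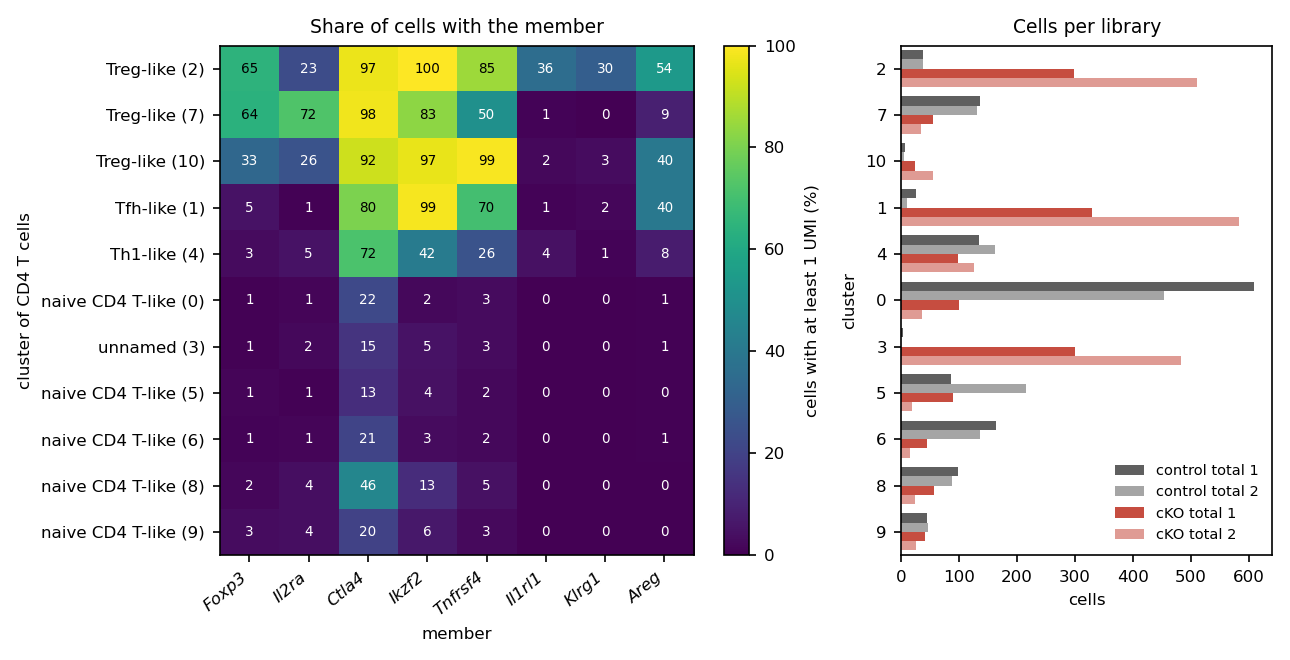
Left, percent of cells with at least 1 UMI of each member (columns) in each of the 11 CD4+ T cell clusters (rows), all 4 total libraries together. Right, number of cells of each library in each cluster. Cluster 3, with a CD8+ T cell marker and no CD4+ T cell marker among its leading genes, is left unnamed. The Il1rl1-rich Treg-like cluster has 883 cells, and the Tfh-like cluster with Ikzf2 in 98.7% of cells has Foxp3 in 4.75%.

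As a mean over the 4 total libraries, CD4+ T cells had the highest level of every member but Klrg1, while the order of means for Il1rl1 differed between the genotypes. Klrg1 was highest in NK cells, where it marks maturation, with a mean of 52.3 CPM (36.6 to 67.0 over 4 libraries) against 19.1 CPM (5.45 to 33.3) in CD4+ T cells. In the controls Il1rl1 was higher in the class named neutrophil, with 18.4 CPM (17.7 to 19.1), than in CD4+ T cells, with 3.4 CPM (3.21 to 3.59), and the libraries did not overlap. In cKO mice it had 24.1 CPM (10.6 to 37.6) in that class and 45.3 CPM (38.9 to 51.7) in CD4+ T cells. That class is a single cluster whose leading genes also include haemoglobin genes such as Hbb-bs. It held 77 Il1rl1 UMIs over the 4 libraries, and which of its cells carried them was not tested. Ctla4 was at a like level in plasma cells, with 473 CPM (443 to 502), and CD4+ T cells, with 477 CPM (401 to 553), of the controls, and the ranges overlap. In cKO mice it had 251 CPM (193 to 309) in plasma cells and 707 CPM (587 to 827) in CD4+ T cells. Whether the classes differed by genotype was not tested. For Ikzf2 the mean was 824 CPM in CD4+ T cells, 113 CPM (69.4 to 135) in CD8+ T cells, 93.7 CPM (76.3 to 139) in NK cells and 87.7 CPM (60.5 to 142) in dendritic cells, and the last 3 overlap. Foxp3 had 52.0 CPM in CD4+ T cells and at most 2.09 CPM as a mean in any other named class. Among named classes, Il2ra had 46.0 CPM in CD4+ T cells and 4.77 CPM (1.14 to 8.41) in NK cells. Monocytes or macrophages followed with 3.13 CPM (0.301 to 8.28). Areg had 98.0 CPM in CD4+ T cells and 12.2 CPM (3.10 to 16.2) in dendritic cells. Tnfrsf4 had 172 CPM in CD4+ T cells and 12.3 CPM (6.32 to 20.2) in monocytes or macrophages. T cells without a subset are not a named class and are left out of these orders. They ranked next after CD4+ T cells for Foxp3, Il2ra, Ikzf2, Areg and Tnfrsf4. Their Il2ra range, 19.1 to 40.7 CPM, overlapped that of CD4+ T cells, 31.8 to 66.9 CPM.

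**Figure D4:**
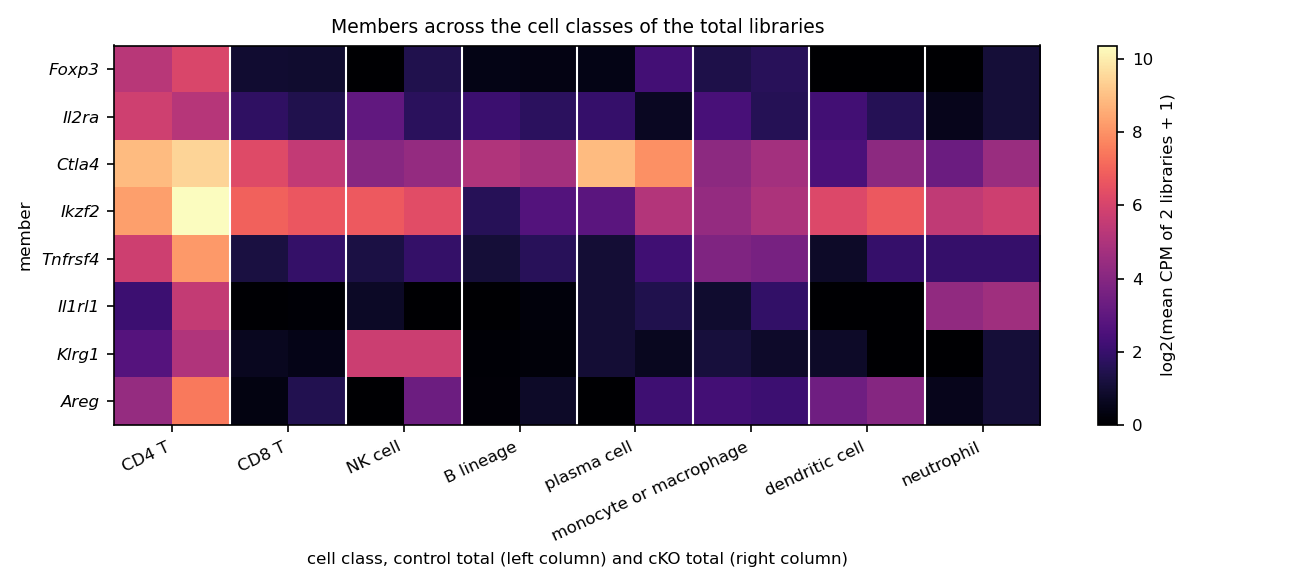
Level of each member (rows) across 8 cell classes of the total libraries, as log2 of the mean CPM of 2 libraries plus 1, with control in the left column and cKO in the right column of each class. CD4+ T cells have the highest level in both columns for every member but Klrg1 and Il1rl1. Klrg1 is highest in NK cells. In the control column Il1rl1 is highest in the class named neutrophil, a cluster with haemoglobin genes also among its leading genes. Ctla4 is nearly level between CD4+ T cells and plasma cells in the control column.

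In sorted YFP+ libraries CD4+ T cells were few, with 163 and 29 in the controls and 205 and 21 in the cKO libraries. Il1rl1 had no UMI in either control, which, taken as 3 cells of the total and for counting error only, allows a UMI in up to 1.84% and 10.3% of cells, and 43.0 and 35.2 CPM in the cKO libraries. Ikzf2 stood at 426 and 121 CPM against 1231 and 888 CPM, and Areg at 32.8 and 9.30 CPM against 106 and 43.9 CPM. Tnfrsf4 had 75 and 37.2 CPM against 179 and 554 CPM, and Ctla4 378 and 326 CPM against 563 and 598 CPM. Foxp3 did not show the order of the total libraries, with 34.0 and 83.7 CPM in the controls and 37.0 and 35.2 CPM in the cKO libraries. Il2ra overlapped, with 69.1 and 37.2 CPM against 25 and 43.9 CPM. Klrg1 had 2, 2, 23 and 0 UMIs and gives no order.

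In the other lymphocytes the members could be tested, since the choice of genes used CD4+ T cells. The test was edgeR's quasi-likelihood test on summed counts, with p-values adjusted over all genes by the Benjamini-Hochberg method. Its p-values measure the spread between libraries of pooled mice. In CD8+ T cells, 4 members passed the filter on low counts and none was called, where 0.0443% of 11291 genes were called. Before adjustment, 537 genes had a p under 0.05, and 63 were called by DESeq2. Ctla4 there had a log2 fold change of -0.78 ± 0.29 (edgeR adjusted p = 0.813). In NK cells, 3 members passed, none was called and 0.0457% of 8760 genes were called. Klrg1 there had a log2 fold change of -0.01 ± 0.35. Whether that differs from CD4+ T cells was not tested.

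In B-lineage cells of total libraries, 6 members passed the filter and none was called by edgeR, where 0.0136% of 14732 genes were called. Before adjustment, 1225 genes had a p under 0.05. DESeq2 called 345 genes, Ikzf2 (adjusted p = 2.74e-04) and Areg (0.013) among them. Ikzf2 and Areg were also called by edgeR with no filter on low counts (edgeR adjusted p 0.0289 and 0.0318). With batch as a block, 12.6% of genes were called, 6.81% higher, and 3 members, Ikzf2, Areg and Tnfrsf4, were called higher. Ikzf2 stood at 1.83 and 2.24 CPM in the controls and 5.53 and 5.33 CPM in the cKO libraries when plasma cells were set apart. Its log2 fold change was 1.56 ± 0.22 with an edgeR adjusted p of 0.11 (0.00506 with the block). Areg had 0.0977 and 0.0905 CPM against 0.596 and 0.827 CPM (2.72 ± 0.41, edgeR adjusted p 0.11, 0.00919 with the block). Areg passed the filter on low counts only through the cKO libraries, so its calls in these sums are a description. Tnfrsf4 had 0.952 and 1.29 CPM against 1.89 and 2.42 CPM (1.01 ± 0.32, edgeR adjusted p 0.399, 0.0337 with the block). Il4 (2.95, edgeR adjusted p = 0.00664), Pdcd1 (2.25, 0.00941) and Tox (1.91, 0.0139), which are also genes of T cells, were called higher in the same sums with the block, and by DESeq2. Other T cell lists, described below, did not all go this way. With the block, 4 follicular genes were called higher and 0 lower. The counts were 0 and 5 for the Treg signature, 2 and 4 for effector Treg genes and 0 and 4 for resting genes. The B-lineage levels of Ikzf2, Areg and Tnfrsf4 were a small part of those in CD4+ T cells of the same libraries and moved in the same direction. Foxp3 and Il2ra also had the same sign in both classes. Ctla4 did not, with a log2 fold change of -0.29 in B-lineage cells and 0.45 in CD4+ T cells. The part of free RNA in droplets was not tested.

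In B-lineage cells of YFP+ libraries, 7 members passed and 2 were called, Il2ra higher and Ctla4 lower, where 7.47% of 16136 genes were called, 3.07% higher and 4.41% lower. Il2ra stood at 1.37 and 0.794 CPM in the controls and 5.02 and 5.52 CPM in the cKO libraries (log2 fold change 2.28 ± 0.32, edgeR adjusted p = 0.0103). Ctla4 stood at 143 and 107 CPM against 46.3 and 34.0 CPM (-1.66 ± 0.26, edgeR adjusted p = 0.0138). Plasma cells made up 10.2% and 9.11% of these control cells and 1.13% and 0.855% of the cKO cells, and with plasma cells left out Ctla4 differed by -0.73 (edgeR adjusted p = 0.171). Without the second cKO YFP+ replicate Ctla4 kept its direction but lost its call, in a fit with a single cKO library left. With batch as a block, where 19.3% of genes were called, Areg was called as well (1.55 ± 0.46, edgeR adjusted p = 0.0389 against 0.0947 without it). The Ikzf2 difference of 1.21 ± 0.92 rested on the first cKO replicate, with 103 UMIs against 9 in the second. Il2ra was thus higher in these cKO cells, while in cKO CD4+ T cells it stood lower, and the difference between these classes was not tested.

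Genes of related programmes were followed in CD4+ T cells with the same model, where 3.30% of 12169 genes were called, 3.14% higher and 0.156% lower. These lists were also chosen with earlier results known. Of 16 Treg signature genes outside the members, 7 were higher in cKO mice and none was lower (list median log2 fold change 1.14). They were Ebi3, Itgae, Nrp1, Plagl1, Nt5e, Tnfrsf9 and Ikzf4. Ebi3, a subunit of IL-27 and IL-35, rose from 2.76 and 4.80 to 20.1 and 31.7 CPM after TMM scaling, called scaled CPM here (2.74 ± 0.36, edgeR adjusted p = 0.0147). Itgae, the integrin CD103, rose by 2.73 ± 0.38 (edgeR adjusted p = 0.0166) and the surface receptor Nrp1 by 1.88 ± 0.27 (edgeR adjusted p = 0.0183). Of 18 genes of the effector and tissue Treg programme, 9 were higher and none was lower (median 1.34), and with batch as a block 11 were higher and 1 was lower. Nfil3 rose by 2.65 ± 0.32 (edgeR adjusted p = 0.0132), the inhibitory receptor Tigit by 2.26 ± 0.28 (0.0138), the transcription factor Maf by 1.93 ± 0.27 (0.0170) and Pparg, a nuclear receptor of tissue Treg cells, by 2.99 ± 0.46 (0.0218). Pparg lost its call (2.08, edgeR adjusted p = 0.13) when CD4+ T cells were chosen by their own Cd3, Cd4, Cd8 and B cell transcripts in place of clusters. Gata3, the factor of type 2 T cells, rose as well, from 75.6 and 74.0 to 186 and 206 scaled CPM (edgeR adjusted p = 0.0291).

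None of 12 genes of resting T cells was called in CD4+ T cells (median log2 fold change -0.99). With batch as a block, where 24.0% of all genes were called, 8 were lower and 1 was higher. Ccr7, which guides T cells within lymphoid tissue, had 270 and 380 against 159 and 110 scaled CPM (edgeR adjusted p = 0.0915, 0.119 with the block). Ccr7 was called lower by DESeq2 (0.00127), and by edgeR with no filter on low counts (0.00434). The axis of IL-2 receptor and STAT5 signalling had none of 12 genes called by edgeR (median -0.11), and with the block 3 were higher and 4 lower. Il2rb, the β chain that pairs with CD25, had 65.4 and 60.9 against 123 and 151 scaled CPM (edgeR adjusted p = 0.0618, 8.76e-05 with the block), opposite to Il2ra. Il2rb was also called by DESeq2 (0.00351) and by edgeR with no filter on low counts (0.00398).

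In the IL-33 and ST2 axis, 2 type 2 cytokines, Il4 and Il13, rose. They were the only genes called of 9 tested and 12 in the list, whose median was 0.05. Il4 stood at 0.636 and 0.989 scaled CPM in controls and 123 and 336 in cKO mice (7.86 ± 0.66, edgeR adjusted p = 0.00698). Il13 had no UMI in either control and 2.52 and 4.25 scaled CPM in the cKO libraries (edgeR adjusted p = 0.0218). Both cytokines passed the filter on low counts only through the cKO libraries, so their calls are a description. Il1rap, the co-receptor of ST2, had 23.0 and 14.8 against 23.4 and 15.9 scaled CPM. Among 13 partners of the members, 10 were tested and 2 were called. Cd80, a ligand of Ctla4, rose from 6.46 and 3.39 to 63.3 and 81.2 scaled CPM (3.80 ± 0.35, edgeR adjusted p = 0.00698). Egfr, the receptor for Areg, had 0.212 and 0 scaled CPM in controls and 2.62 and 11.1 in cKO mice (edgeR adjusted p = 0.0428), and 0.0779 with cells chosen by transcripts. It too passed the filter only through the cKO libraries. Egfr was among the leading genes of a CD4+ T cell cluster led by Efna5, Tspan9 and Eomes, which is left unnamed and held 2 and 0 control cells and 300 and 483 cKO cells. Of 10 follicular genes, 4 were higher, Pdcd1, Tox2, Ascl2 and Sh2d1a (median 1.37), with Pdcd1 rising by 3.05 ± 0.30 (edgeR adjusted p = 0.00707). The call of Ascl2 was lost with cells chosen by transcripts (edgeR adjusted p = 0.0849) and that of Sh2d1a without the second cKO replicate (0.168). None of 3 other Ikaros-family genes and none of 6 B cell markers was called, but with batch as a block Ikzf1 (-0.88, edgeR adjusted p = 2.25e-04) and Cd79a (-0.42, 0.0269) were lower and Igkc (0.67, 0.00518) was higher.

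In Foxp3+ cells alone, where 1.41% of 8803 genes were called, few list genes passed. These values too compare Foxp3+ cells that lay mostly in the Il2ra-led cluster in controls and in the Il1rl1-rich cluster in cKO mice. Tigit rose by 1.37 ± 0.29 (edgeR adjusted p = 0.0330), and this call was lost without either control replicate (0.0944 and 0.077), with cells chosen by transcripts (0.111) and with DESeq2 (0.0508). Cxcr3, the chemokine receptor of type 1 responses, fell from 59.1 and 62.4 to 13.3 and 4.19 scaled CPM (-2.74 ± 0.40, edgeR adjusted p = 0.00404). Ccr7 fell from 126 and 181 to 51.9 and 33.8 scaled CPM (-1.82 ± 0.32, edgeR adjusted p = 0.0126), and its adjusted p was 0.0884 without the second cKO replicate. Cd80 rose by 1.98 ± 0.32 (edgeR adjusted p = 0.00829), and Il4 stood at 1.14 and 0 against 52.5 and 114 scaled CPM (edgeR adjusted p = 6.44e-04). Here too Il4 passed the filter on low counts only through the cKO libraries. Itgae rose by 2.00 ± 0.40 (edgeR adjusted p = 0.0258), a call lost with batch as a block (edgeR adjusted p = 0.277). With that block, where 14.3% of all genes were called, 4 Treg signature genes were higher and 4 lower, 9 effector genes were higher and 2 lower, and 8 resting genes were lower. In Foxp3- cells, where 3.82% of 11815 genes were called, 7 Treg signature genes were higher and 1 lower, and 9 of 17 effector genes were higher. These sums also held cells of the Il1rl1-rich Treg-like cluster without a Foxp3 UMI, and the part of those cells was not tested. Plagl1 (2.92), Itgae (2.44), Ebi3 (3.25) and Nrp1 (2.24) led the signature there, and Il2rb was called higher (1.57 ± 0.27, edgeR adjusted p = 0.0205), but not with cells chosen by transcripts (1.06, 0.103).

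Between Foxp3+ and Foxp3- cells of the same library, 16.5% of 10895 genes were called, and 2.19% without the library block. Of the Treg signature genes 10 of 16 were higher in Foxp3+ cells and none was lower. Itgae (3.18 ± 0.17), Lrrc32, which encodes the TGF-β docking receptor GARP (2.95), Swap70 (2.07) and Ikzf4 (1.95) were among them. Of the resting genes 8 were lower, led by Tcf7 (-1.77) and Lef1 (-1.42). Socs2 (2.71) and Cish (2.38), feedback inhibitors induced by STAT5, were higher in Foxp3+ cells. Of 6 B cell markers, Ighm (0.88, edgeR adjusted p = 0.0212) and Cd79b (0.56, 0.0222) were higher in Foxp3+ cells, and both calls were lost without the library block (0.103 and 0.197). Il4 was lower in Foxp3+ cells (-1.72) and lost its call without the library block (edgeR adjusted p = 0.758) and with DESeq2 (0.117). Without that block the calls of Itgae (0.0876) and Lef1 (0.0799) were also lost.

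**Figure D5:**
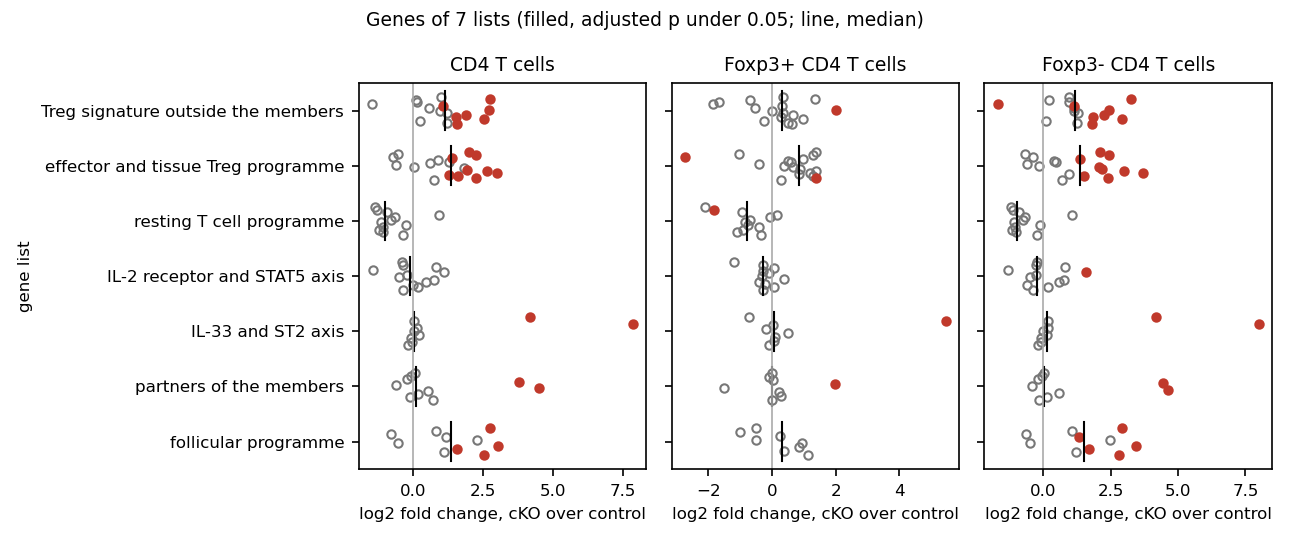
Log2 fold change of cKO over control (horizontal axis) for each gene of 7 lists (vertical axis) in all, Foxp3+ and Foxp3- CD4+ T cells. Filled points had an edgeR adjusted p under 0.05 and lines mark list medians. The Treg signature has 7 filled points in all CD4+ T cells and 1 in Foxp3+ cells, and fitted values of genes with hardly any control UMI, such as Il13 and Egfr, depend on the prior count of the model. In all CD4+ T cells, Il4, Il13 and Egfr passed the filter on low counts only through the cKO libraries.

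In B-lineage cells of YFP+ libraries, where Il2ra was higher and 7.47% of all genes were called, 4 of the 12 genes of the IL-2 receptor and STAT5 axis were called higher and 1 lower, and with batch as a block 3 and 2. Socs2 rose from 6.68 and 7.11 to 27.7 and 41.1 scaled CPM (2.32 ± 0.26, edgeR adjusted p = 0.00676) and Stat5a, which acts below the IL-2 receptor, from 11.9 and 12.8 to 41.1 and 50.7 (1.89 ± 0.23, 0.00703). Il2rb fell there (-2.04, edgeR adjusted p = 0.0128). Cish rose by 4.6 ± 0.64 (edgeR adjusted p = 0.0104), a call lost with batch as a block (0.0982) and without the first (0.57) or the second (0.609) control replicate. Tnfsf4, the ligand of OX40, rose from 1.30 and 0.74 to 15.1 and 15.5 scaled CPM (3.88 ± 0.32, edgeR adjusted p = 0.0035). Cd28 fell (-2.86, edgeR adjusted p = 0.00353), but stood at 0.25 (0.862) with plasma cells left out. The part of the differing makeup of these sums in the other values was not tested.

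The genes whose pattern over 32 class and library sums was most like a member's were sought among 16343 genes, by Pearson's r of log2(CPM + 1), as a description over points that share libraries. Foxp3 was most like Tnfrsf4 (r = 0.904), Gm47214 (0.893) and the chemokine receptor Ccr8 (0.890). Tnfrsf4 was most like Penk (0.930), Ncmap (0.915) and Foxp3. Il1rl1 was most like Npnt (0.897), Prox1 (0.891) and Mpp2 (0.888), and Areg was most like Nav2 (0.827), with Ccr8 next (0.818). For Il2ra, Ctla4, Ikzf2 and Klrg1 the closest genes were 2610204G07Rik (0.863), Dusp4 (0.789), Gm20275 (0.868) and Ccdc136 (0.905). Over the CD4+ T cell clusters, a set of 37 points chosen after the values were seen, the closest gene to Il1rl1 was Klrg1 (0.899), that to Il2ra was Foxp3 (0.827), and Areg was among the 3 closest to Tnfrsf4 (0.946).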

How the data were processed

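Groups, replicates and batches came from the labels. The values used were the whole-number UMI counts per gene and cell that the authors deposited, with no normalization. The submitters' processing notes name the builds GRCm38 and mm10. No aligner or annotation is named for the single-cell RNA libraries in the labels or methods read. The study merged its replicates. The members, gene lists and tests were chosen with earlier results of these data known. The genes named from the other lists were up to 4 called genes of lowest adjusted p in a comparison, or up to 2 genes of a list with none called, and Gata3, Il1rap, the remaining called Treg signature genes and the CD8+ and NK cell examples were chosen after their values were seen. A gene that this rule picks is not reported here.

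Cells with over 200 UMIs, over 100 genes and at most 10% mitochondrial UMIs were kept. They were scaled to 10000 counts, reduced to 2000 variable genes and 30 principal components, and clustered by the Leiden algorithm (20 neighbours, resolution 1, igraph 0.11.9). The members and the other gene lists, except the B cell markers, were left out of the variable genes. Clusters were named from fixed markers, of which at least 3 had to be detected, so that classes are rebuilt and not those of the authors. T cells in a cluster with B cell transcripts, and other T cells without a subset, were left out of CD4+ T cells. Doublets were scored, and removing the top 8% was an alternative. Counts were summed per library and class (at least 20 cells) and tested in edgeR 4.0.16 (TMM, quasi-likelihood, R 4.3.3) with a false discovery rate of 0.05. DESeq2 1.42.0 was an alternative. On simulated CD4+ T cell sums the test was checked before use. Shares have exact Clopper-Pearson intervals at 95% confidence. Total UMIs of a library ranged from 71894780 to 105224903.

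The replicate number marks a batch, which pairs the libraries. Deviations from the group means correlated between libraries of the same number (0.56 to 0.70 over 7 sets of sums), and each comparison was also fitted with this block.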

Additional observations from a re-analysis of the deposited data

Results flagged for a closer look

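In B-lineage cells the genotype effect on Il2ra differed between the sorted YFP+ and the total libraries, by a test of the difference itself in a single edgeR model over 16415 genes. The difference, YFP+ minus total, was 2.72 ± 0.36 on the log2 scale (edgeR adjusted p = 0.026, and 0.00293 with batch as a block). It arose from a log2 fold change of 2.28 in YFP+ libraries against -0.47 in total libraries. The YFP+ sums differed in makeup between genotypes, and the part of that here was not tested. Of the 16415 genes tested, 288 (1.75%) differed between the sorts in this way, and 2005 did with the block. For Ctla4 the same difference was -1.40 ± 0.31 (edgeR adjusted p = 0.0856), and it passed with the block (0.0172). The Ctla4 difference within YFP+ libraries stood at -0.73 (edgeR adjusted p = 0.171) with plasma cells left out.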

How the results depend on the processing

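Few libraries and rebuilt cell classes limit these comparisons. Counts of called genes moved with the processing, while DESeq2 size factors and a stricter cell filter changed none of the 182 calls on named genes. With no filter on low counts the genes called were 1207 in CD4+ T cells (401 as reported), 352 in Foxp3+ (124), 1085 in Foxp3- (451), 106 in CD8+ T cells (5), 17 in NK cells (4) and 111 in B-lineage cells of total libraries (2). DESeq2 called 667, 63 and 345 in CD4+, CD8+ and B-lineage cells. With the replicate block the counts were 2921 in CD4+, 1258 in Foxp3+, 2164 in Foxp3-, 613 in CD8+, 102 in NK, 1858 in B-lineage cells of total and 3117 of YFP+ libraries (1206), and without it 239 between Foxp3+ and Foxp3- cells (1797). The block added 41 calls on named genes and removed 2, Itgae in Foxp3+ and Cish in YFP+ B-lineage cells, and changed no other call on them. A gate on transcripts in place of clusters gave 215 in Foxp3-, 1124 between Foxp3+ and Foxp3- and 49 in CD8+ cells. Without cells of top doublet scores NK cells had 0 edgeR calls (95 at an unadjusted p under 0.05), and without plasma cells B-lineage cells had 8. Leaving out 1 library gave 443 to 1129 calls in CD4+, 80 to 290 in Foxp3+, 422 to 1066 in Foxp3-, 1076 to 1596 between Foxp3+ and Foxp3-, 45 to 211 in CD8+, 9 to 16 in NK and 174 to 708 and 902 to 2536 in B-lineage cells of total and YFP+ libraries. It left 7 to 8 members more often detected in cKO CD4+ T cells, 7 with a higher level and 6 to 7 highest in that class. A fit with 1 library left out has a single library in a group, so its spread comes from the other group alone. The cause of these shifts was not tested.

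Several values changed direction when 1 library was left out, here as the lowest and highest log2 fold change over the left-out libraries. As reported, most of these lay within 0.6 of 0, while Ikzf2 in YFP+ B-lineage cells stood at 1.21, Tnfrsf4 in CD8+ T cells at 0.94 and Ighm in NK cells at -1.04. In Foxp3+ cells Foxp3 ranged from -0.28 to 0.02, Ikzf5 from -0.36 to 0.12 and Cd79a from -1.05 to 0.05. In CD8+ T cells Ikzf2 ranged from -0.74 to 0.13, Tnfrsf4 from -0.06 to 1.62, Cd79a from -0.77 to 0.07 and Igkc from -0.08 to 0.65. In NK cells Ctla4 ranged from -0.15 to 0.95, Ikzf2 from -0.71 to 0.05, Klrg1 from -0.42 to 0.34, Nfil3 from -0.04 to 0.78, Irak1 from -0.60 to 0.06, Ikzf1 from -0.47 to 0.05, Ikzf5 from -0.83 to 0.25 and Ighm from -1.74 to 0.40. In B-lineage cells of total libraries Foxp3 ranged from -0.13 to 1.14, Ikzf1 from -0.30 to 0.03 and Igkc from -0.27 to 0.76, and in those of YFP+ libraries Ikzf2 from -1.24 to 2.06, Il1rl1 from -1.21 to 1.07, Klrg1 from -1.34 to 0.93 and Ikzf5 from -0.03 to 0.17. The difference in Il2ra detection in CD4+ T cells ranged from -2.86 to 0.405 percentage points, the positive value without the first control replicate. With plasma cells left out, Cd28 stood at 0.25 in YFP+ and Foxp3 at -0.01 and Igkc at -0.04 in total libraries. With Cd4-positive cells of the T and B cell cluster added, Cd79a stood at 0.01 in CD4+ and 0.44 in Foxp3+ cells and Cd79b at -0.12 between Foxp3+ and Foxp3- cells. A gate on transcripts put Ikzf5 in Foxp3+ cells at 0.11, and removing top doublet scores put Swap70 in NK cells at -0.08. The added cells and the plasma cells left out were chosen after seeing the data.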
